A study of Mus musculus with 6 samples.

Results

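Membrane carriers of amino acids, sugars and monocarboxylates were compared between Sp8 null and wild-type forelimb bud ectoderm of the mouse at E10.5. The members were the rows of the expression table whose gene symbol belongs to solute carrier family Slc1, Slc2, Slc3, Slc5, Slc6, Slc7, Slc16, Slc36, Slc38 or Slc43. There were 97 of them among 49452 genes, all protein-coding. The wild-type group was 3 embryos from matings within the C57BL/6 inbred strain. The Sp8 null group was 3 embryos from matings of mice heterozygous for an Sp8 allele that carries Cre-ERT2, with C57BL6J given as the background strain of both groups. The embryos of the groups therefore came from different matings, and the null allele was present in all cells of the embryo. Each library was polyadenylated RNA of the forelimb ectoderm of 1 embryo, left and right together, freed with trypsin. The labels name no drug or other treatment.

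The forelimb ectoderm is the epithelial cover of the limb bud, and its thickened rim, the apical ectodermal ridge, sends growth signals to the mesenchyme beneath. Sp8 is a zinc finger transcription factor that this epithelium needs to form a ridge. Solute carriers move nutrients across membranes down or against a gradient. Facilitative hexose carriers admit glucose, sodium-coupled and exchanger families bring in amino acids, and proton-linked monocarboxylate carriers pass lactate, the end product of glycolysis. Several amino acid carriers work as pairs, in which a glycoprotein heavy chain from the Slc3 family brings a light chain from the Slc7 family to the cell surface.

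Values are FPKM, fragments per length of transcript and per total of mapped fragments, which corrects for transcript length, so that levels of different genes can be set side by side. A gene was tested if at least 3 libraries reached 1 FPKM. The test was limma on log2(FPKM + 1), fitted on 12133 genes, and a gene is called different at a Benjamini-Hochberg adjusted p-value under 0.05 over all of them. Sp8, the targeted gene, was at 8.35, 10.97 and 13.5 FPKM in wild-type embryos 1, 2 and 3 and at 0.766, 0.460 and 1.14 FPKM in Sp8 null embryos 1, 2 and 3. Depth is known only in relative terms: against wild-type embryo 1, the other libraries lay between 0.843 and 1.03. The summed FPKM of 14 markers of limb ectoderm and surface epithelium was 928 to 1203 in Sp8 null and 1123 to 1248 in wild type. That of 13 limb mesenchyme markers was 136 to 256 and 126 to 172 FPKM, and Sp8 null embryo 2 was the highest. That of the 9 measured erythroid markers was 62.8 to 164 and 11.7 to 428 FPKM, and wild-type embryo 1 was the highest. The summed level was 2.57 to 4.58 and 2.21 to 3.23 FPKM for 10 endothelial markers, and 1.65 to 3.21 and 0.276 to 0.987 FPKM for 9 macrophage markers. For 7 markers of neural crest, glia and melanocyte precursors it was 10.3 to 12.4 and 5.24 to 7.54 FPKM, most of it Ngfr, while the crest marker Foxd3 was listed at 0 in 5 libraries. Of these markers Ngfr and the mesenchymal Sox9 and Lmx1b were called higher in Sp8 null. In the epithelial list Tfap2a was called higher and Epcam lower. The macrophage and crest sums were higher in every Sp8 null library than in any wild-type library, and the other sums overlapped. Although the mesenchyme sums overlapped, the median log2 fold change of the 12 tested mesenchyme markers was 0.79, and 5 of them had a lower estimate. The part of other cell types in the carrier results was not tested.

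The clearest carrier changes were losses. Of 38 carriers that could be tested, 5 fell in Sp8 null and none rose (limma, adjusted p under 0.05). The 5 were Slc16a10, which carries aromatic amino acids, Slc7a1, which carries arginine and lysine, Slc6a2, the noradrenaline carrier, Slc16a3, a lactate exporter, and Slc7a11, the cystine and glutamate exchanger. Over all 12133 genes 6.83% were called, 5.15% as lower and 1.68% as higher, against 13.2% of tested carriers. Of the 38 tested carriers 3, or 7.89%, were called and fell at least 2-fold on the log2(FPKM + 1) scale, as 1.11% of all tested genes did. These were Slc16a10, Slc7a1 and Slc6a2. Where the mean over all libraries reached 5 FPKM, 3 of 18 carriers were called, 16.7% against 7.69%. At an unadjusted p under 0.05 there were 16 of 38 carriers, or 42.1% against 24.0% of all tested genes. Of these 13 were lower, where 17.5% of all tested genes were, and 3 higher, where 6.50% were. Of the 5, Slc6a2 could be tested only through its wild-type level. With only protein-coding genes tested the number of called carriers was 7, and with no filter on low values it was 3. The median log2 fold change of the tested carriers, -0.04, was close to that of all tested genes, -0.06, and 19 of 38 had an absolute log2 fold change under 0.2. Groups did not overlap for 14 of 38 carriers, 11 lower and 3 higher, against 29.8% of all tested genes. Over all tested genes 21.1% were without overlap and lower, and 8.63% without overlap and higher. These are bulk libraries, in which fewer cells of a type and less RNA per cell cannot be told apart.

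**Figure D1:**
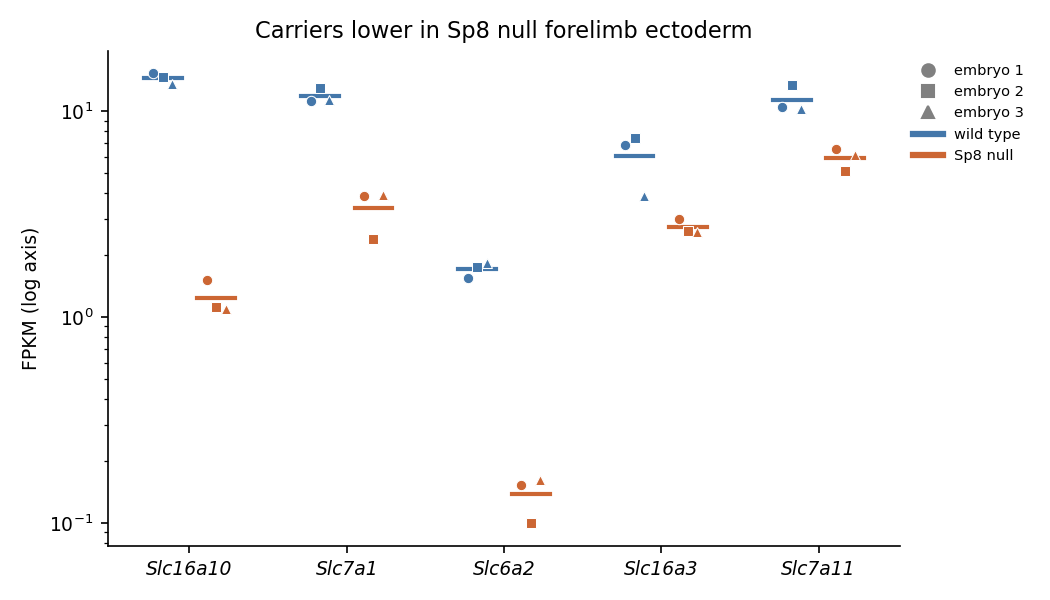
FPKM of the 5 called carriers in each library, on a log axis, with wild type in blue and Sp8 null in orange; a point is 1 embryo and a bar is the group mean. The groups do not overlap for any of the 5 genes, and the gap is widest for Slc6a2 and Slc16a10, whose mean wild-type FPKM was 12.4 and 11.7 times the Sp8 null mean.

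The Slc16 family holds proton-linked monocarboxylate carriers and relatives that carry aromatic amino acids or creatine. Of its 14 members 8 were tested and 2 fell. Slc16a10 (ENSMUSG00000019838; GRCm38, chromosome 10, 40033532 to 40142258, minus strand), which lets phenylalanine, tyrosine and tryptophan out of or into cells by facilitated diffusion, was at 15.3, 14.6 and 13.6 FPKM in wild-type embryos 1, 2 and 3 and at 1.51, 1.12 and 1.09 FPKM in Sp8 null embryos 1, 2 and 3. Every Sp8 null library was far below every wild-type library, and neither group spread much. The log2 fold change was -2.79 (SE 0.11; limma adjusted p = 1.5e-05), the 15th largest of the 625 falls among all genes. It was -2.70 between the embryos whose sample names start with 4, with 1 library in each group, and -2.84 among those that start with 5, with 2 in each. The log2(FPKM + 1) scale understates such a change, and the ratio of the mean levels was 11.7. In the authors' deposited table its mean signal was 2941 in wild type and 244 in Sp8 null.

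The stretch of 250 bases before the RefSeq start of Slc16a10 is shown because this was the largest carrier change on the log2(FPKM + 1) scale. GC boxes, GGGCGG on either strand and the letters to which Sp factors in general bind, are in capitals. It lies at chr10:40142255-40142504 on the minus strand of GRCm38.p6.
Slc16a10: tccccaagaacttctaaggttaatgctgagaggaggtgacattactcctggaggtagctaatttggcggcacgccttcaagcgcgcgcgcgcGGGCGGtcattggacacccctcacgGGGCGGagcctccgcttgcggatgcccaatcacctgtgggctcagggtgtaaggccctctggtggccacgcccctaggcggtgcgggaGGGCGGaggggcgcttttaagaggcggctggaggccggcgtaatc
It holds 3 matches. A GC box stood in 32.7% of the 32851 RefSeq promoter windows of this length and in 20 of the 26 tested carriers with an entry, so the match does not set Slc16a10 apart, and binding was not measured here.

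Slc16a3 (ENSMUSG00000025161; chromosome 11, 120948480 to 120960868, plus strand) exports lactate from glycolytic cells. Its level was 6.85, 7.43 and 3.88 FPKM in wild type and 3.01, 2.62 and 2.58 FPKM in Sp8 null. Wild-type embryo 3 was nearer to the Sp8 null libraries than to the other wild-type ones, but the groups did not overlap. The log2 fold change was -0.88 (SE 0.20; limma adjusted p = 0.0454). This call was lost in 10 of 14 alternatives. Without any 1 of Sp8 null embryos 1, 2 and 3 or wild-type embryos 1 and 2 the limma adjusted p ranged from 0.0987 to 0.147, and under the other scalings it was 0.0507 and 0.0534. Without wild-type embryo 3 the fold change was -1.12 and the adjusted p 0.00534.

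Slc16a1, the widely expressed lactate and pyruvate carrier, was the most abundant member of the family. It was at 23.4, 26.2 and 24.3 FPKM in wild type and at 25.6, 25.3 and 28.8 FPKM in Sp8 null. The groups overlapped, and the 95% interval of the log2 fold change, -0.08 to 0.29, lay well within a 2-fold change either way. Within a library there was 3.41 to 6.26 times as much Slc16a1 as Slc16a3 in wild type and 8.51 to 11.1 times as much in Sp8 null. Slc16a7, a high-affinity pyruvate and lactate carrier, was at 5.25, 7.37 and 4.65 FPKM in wild type and at 4.90, 2.52 and 3.21 FPKM in Sp8 null. It overlapped between the groups in Sp8 null embryo 1 (log2 fold change -0.59, limma adjusted p = 0.156). Slc16a6 and Slc16a13 had groups that did not overlap and missed the threshold, with log2 fold changes of -0.46 and 0.39 (limma adjusted p = 0.091 and 0.137). Exons of Slc16a6 share bases with Amz2 on the other strand, and reads of such a pair cannot be told apart if strand was not used. The summed FPKM of the family was 62.7 ± 5.49 in wild type and 46.5 ± 0.859 in Sp8 null (SD, n = 3 each), a difference of 16.3 FPKM, of which Slc16a10 made up 13.3.

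The Slc7 family holds the cationic amino acid carriers and the light chains of the paired carriers. Of its 14 members 4 were tested and 2 fell. Slc7a1 (ENSMUSG00000041313; chromosome 5, 148327410 to 148399904, minus strand), the main route for arginine, lysine and ornithine in most growing cells, was at 11.2, 12.96 and 11.3 FPKM in wild type and at 3.88, 2.40 and 3.91 FPKM in Sp8 null. All 3 Sp8 null libraries were below all wild-type libraries, and Sp8 null embryo 2, which also had the most mesenchymal marker RNA, was the lowest. The log2 fold change was -1.56 (SE 0.16; limma adjusted p = 0.0017), and 53rd in size among the falls of all genes. It was -1.32 between the libraries numbered 4 and -1.68 among those numbered 5. Without Sp8 null embryo 2 it was -1.38, still called.

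Slc7a2, a related carrier of cationic amino acids, was at 3.14, 2.34 and 1.97 FPKM in wild type and at 3.39, 3.70 and 3.25 FPKM in Sp8 null. Its Sp8 null libraries were all above the wild-type ones, by a small margin (log2 fold change 0.36, limma adjusted p = 0.163). The ratio of Slc7a2 to Slc7a1 was 0.174 to 0.282 in wild type and 0.831 to 1.54 in Sp8 null. The 250 bases before the upstream RefSeq start of Slc7a1, at chr5:148399905-148400154 on the minus strand of GRCm38.p6, are shown for comparison with Slc16a10, with the GC box, here on the other strand as CCGCCC, in capitals.
Slc7a1: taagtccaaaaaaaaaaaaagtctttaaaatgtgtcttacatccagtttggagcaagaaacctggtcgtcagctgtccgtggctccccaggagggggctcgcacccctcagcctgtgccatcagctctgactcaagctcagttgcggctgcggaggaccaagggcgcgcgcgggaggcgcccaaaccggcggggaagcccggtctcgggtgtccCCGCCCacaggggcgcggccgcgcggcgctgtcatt
This window holds 1 match. The window of a second listed start, inside the gene, holds 0.

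Slc7a11 (ENSMUSG00000027737; chromosome 3, 49892526 to 50443614, minus strand) exchanges cystine for glutamate and supplies cysteine for glutathione. It was at 10.53, 13.4 and 10.2 FPKM in wild type and at 6.54, 5.13 and 6.15 FPKM in Sp8 null. The groups were well apart, with wild-type embryo 2 the highest. The log2 fold change was -0.83 (SE 0.13; limma adjusted p = 0.0115). It was -0.61 between the libraries numbered 4 and -0.94 among those numbered 5. With no filter on low values, with 27766 genes to adjust over in place of 12133, the adjusted p was 0.0567.

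The 250 bases before the RefSeq start of Slc7a11 are shown because this gene is a known target of ATF4, the factor that answers amino acid shortage by binding amino acid response elements. The window is chr3:50443614-50443863 on the minus strand of GRCm38.p6, and matches to the core of that element, TGATGNAA on either strand, with N any base, are in capitals.
Slc7a11: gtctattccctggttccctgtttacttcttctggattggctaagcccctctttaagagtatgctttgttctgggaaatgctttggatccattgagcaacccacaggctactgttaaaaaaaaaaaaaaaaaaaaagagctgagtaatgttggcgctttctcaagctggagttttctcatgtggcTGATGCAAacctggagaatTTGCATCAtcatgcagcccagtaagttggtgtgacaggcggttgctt
There are 2 matches, 1 on each strand, and 39 bases lie between the nearer one and the start. The core stood in 3.45% of all 32851 RefSeq promoter windows and in 1 of the 26 tested carriers with an entry, Slc7a11. Bases outside these windows were not searched. Whether either match was bound was not measured here.

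Slc3a2, the heavy chain that carries Slc7a11, Slc7a6 and other light chains to the surface, was at 21.4, 17.97 and 17.9 FPKM in wild type and at 18.3, 16.7 and 19.2 FPKM in Sp8 null. The groups overlapped (log2 fold change -0.07, 95% interval -0.30 to 0.15), and the sign turned under upper-quartile scaling. There was 1.34 to 2.04 times as much Slc3a2 as Slc7a11 in wild type and 2.80 to 3.26 times as much in Sp8 null. Slc7a6, a light chain that exchanges cationic for neutral amino acids, was at 9.33, 8.99 and 10.2 FPKM in wild type and at 5.03, 7.03 and 7.36 FPKM in Sp8 null. The groups did not overlap, and the log2 fold change of -0.50 missed the threshold (SE 0.13; limma adjusted p = 0.0689), passing it at 0.0385 when only protein-coding genes were tested. The other heavy chain, Slc3a1, which serves kidney and gut, was at most 0.133 FPKM. Summed over the family, Slc7 RNA was 36.7 ± 1.72 FPKM in wild type and 21.1 ± 1.53 FPKM in Sp8 null (SD, n = 3 each), and every Sp8 null sum was below every wild-type sum. Slc7a1 made up 54.1% of that difference, Slc7a11 34.9% and Slc7a6 19.5%, while Slc7a2 went the other way.

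**Figure D2:**
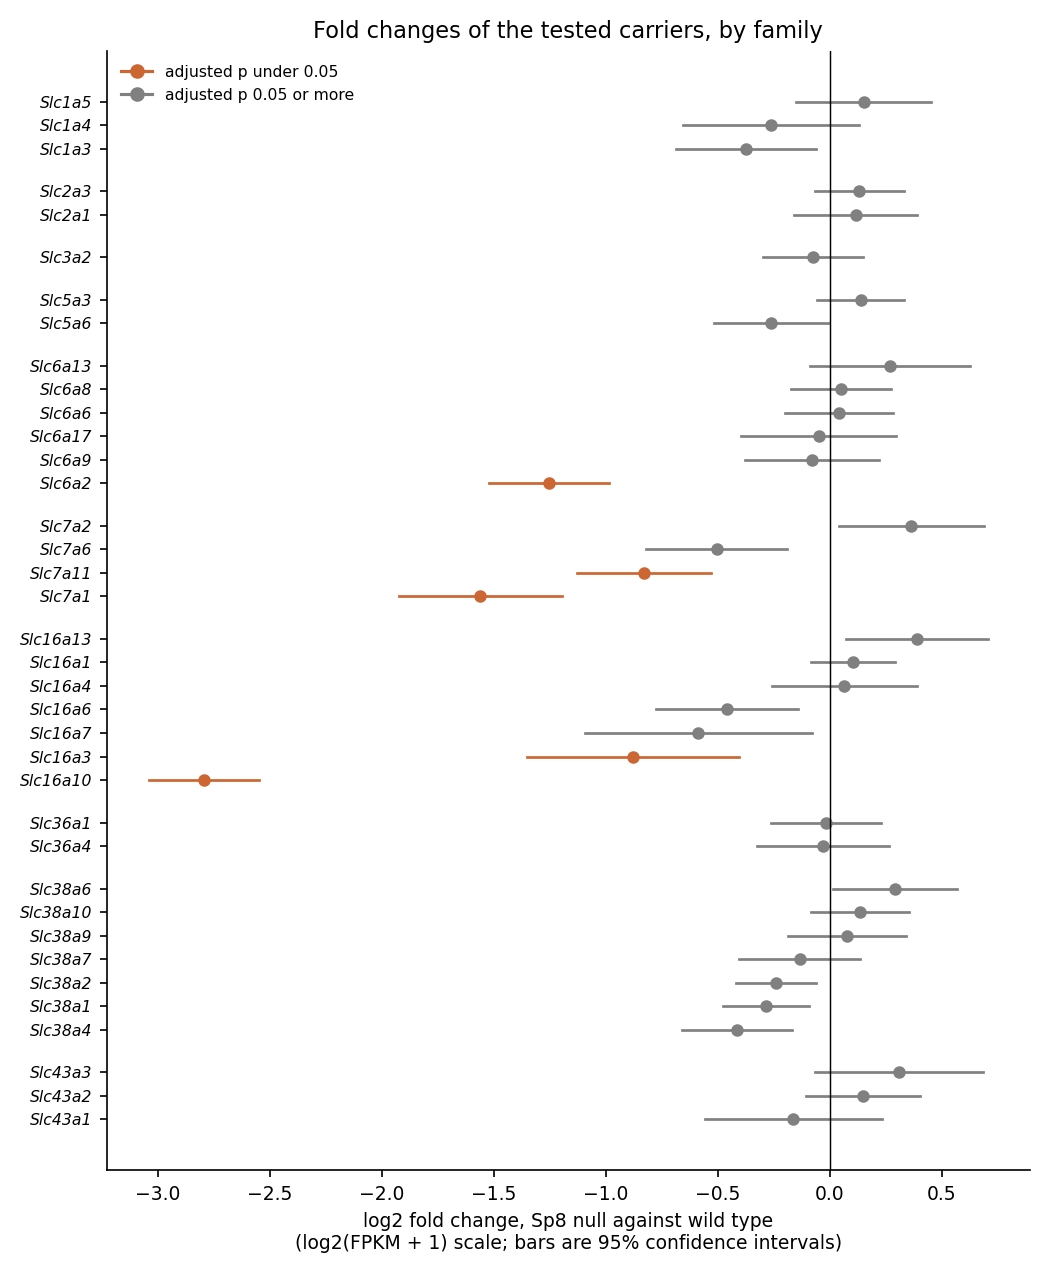
Log2 fold change of 37 of the 38 tested carriers (x axis, Sp8 null against wild type on the log2(FPKM + 1) scale), grouped by family, with 95% confidence intervals as bars and the 5 called carriers in orange. All 5 called carriers lie left of 0, and the estimates of the grey genes run from -0.59 (Slc16a7) to 0.39 (Slc16a13).

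The sodium-coupled neutral amino acid carriers of the Slc38 family included the most abundant amino acid carriers measured here. Of 11 members 7 were tested and none was called. Slc38a2, which brings in alanine, serine and glutamine and is induced when amino acids run short, was at 54.3, 58.0 and 53.4 FPKM in wild type and at 43.1, 49.7 and 47.2 FPKM in Sp8 null. Slc38a4, an imprinted carrier best known from placenta and liver, was at 45.5, 56.2 and 54.1 FPKM against 38.9, 34.9 and 42.2 FPKM. Slc38a1, a glutamine carrier, was at 34.0, 34.6 and 30.7 FPKM against 24.8, 27.9 and 28.3 FPKM. In all 3 genes every Sp8 null library lay below every wild-type library, and the log2 fold changes were small: -0.24, -0.41 and -0.28, with limma adjusted p = 0.107, 0.0591 and 0.0842. Slc38a4 passed without wild-type embryo 1 (adjusted p = 0.0477) and when only protein-coding genes were tested (0.0335). These 3 genes are neighbours on chromosome 15, between 96571418 and 97055956.

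Slc38a6, whose substrates are less well defined, pointed the other way, with 14.9, 12.6 and 11.2 FPKM in wild type and 14.7, 15.4 and 17.9 FPKM in Sp8 null (log2 fold change 0.29, limma adjusted p = 0.189). The groups overlapped. Slc38a9, the lysosomal arginine sensor that signals to the growth kinase mTOR, stood at 1.05 to 1.20 FPKM in wild type and 1.06 to 1.35 FPKM in Sp8 null. Slc38a7 and Slc38a10 had log2 fold changes of -0.13 and 0.13. The summed FPKM of the family was 163 ± 7.17 in wild type and 137 ± 7.03 in Sp8 null (SD, n = 3 each), with Slc38a4 the largest contributor to the difference at 13.3 of 25.1 FPKM.

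**Figure D3:**
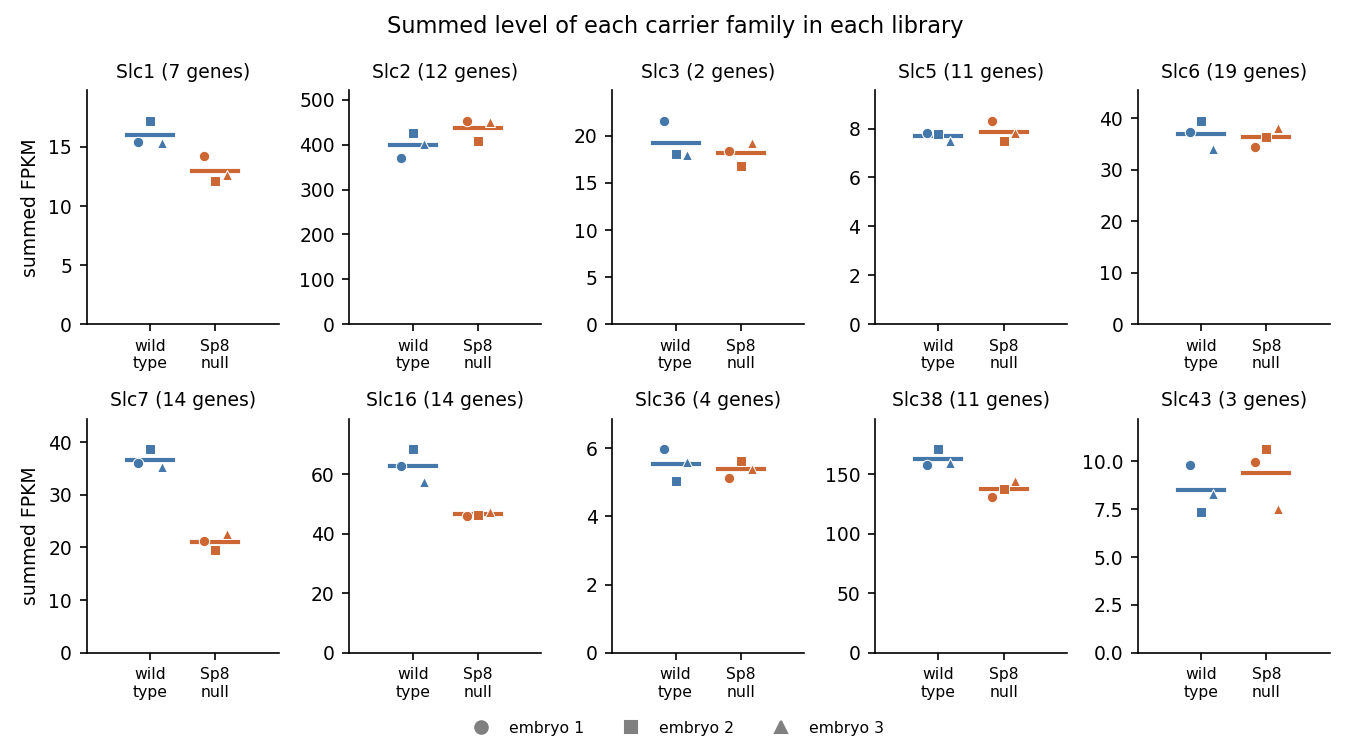
Summed FPKM of all members of each of the 10 families in each library, with axes that start at 0; a point is 1 embryo and a bar is the group mean. The libraries of the genotypes lie apart for Slc1, Slc7, Slc16 and Slc38, and overlap for the other 6 families.

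Among the remaining amino acid families no gene was called. In the Slc1 family of glutamate and neutral amino acid carriers, 3 of 7 members were tested. Slc1a3, a glutamate and aspartate carrier, was at 9.56, 13.0 and 10.8 FPKM in wild type and at 9.58, 7.23 and 8.22 FPKM in Sp8 null. Wild-type embryo 1 and Sp8 null embryo 1 were nearly equal, so the groups overlapped (log2 fold change -0.37, limma adjusted p = 0.146). Slc1a4 and Slc1a5, exchangers of serine, alanine and glutamine, had log2 fold changes of -0.26 and 0.15 at 1.35 to 3.14 FPKM. Slc36a4 and Slc36a1, of a family known for proton-coupled amino acid uptake, had -0.03 and -0.02, and both turned slightly higher under other scalings. The Slc43 family carries large neutral amino acids and, in the case of Slc43a3, nucleobases. Its highest member, Slc43a3, was at 4.02, 3.04 and 3.47 FPKM in wild type and at 5.45, 5.03 and 3.43 FPKM in Sp8 null (log2 fold change 0.31, limma adjusted p = 0.296), with overlap. Slc43a1 and Slc43a2 had log2 fold changes of -0.16 and 0.15.

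Glucose carriers made up most of the summed carrier FPKM. Slc2a3, the high-affinity neuronal and embryonic glucose carrier, was at 285, 335 and 329.7 FPKM in wild type and at 350.5, 325 and 363 FPKM in Sp8 null. Slc2a1, the general glucose carrier, was at 80.2, 88.5 and 68.6 FPKM in wild type and at 96.5, 76.7 and 83.8 FPKM in Sp8 null. Both overlapped between the groups. The log2 fold change was 0.13 for Slc2a3 (95% interval -0.07 to 0.33; limma adjusted p = 0.398) and 0.12 for Slc2a1 (-0.16 to 0.39; limma adjusted p = 0.601), so a change of 2-fold in either direction lay outside both intervals. Together the pair made up 50.5% to 53.7% of the summed FPKM of all 97 carriers in wild type and 57.5% to 60.4% in Sp8 null. Slc2a3 was 3.56 to 4.80 times Slc2a1 in wild type and 3.63 to 4.34 times in Sp8 null. The other 10 members of the family did not pass the filter. Of these the highest by mean over the 6 libraries were Slc2a8, an intracellular carrier, with 0.974 FPKM and Slc2a9, a urate carrier, with 0.966 FPKM, and both reached 1 FPKM in 2 libraries.

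The Slc5 family couples sugar, inositol or vitamin uptake to sodium. Slc5a3, the myo-inositol carrier, was at 5.78, 5.55 and 5.54 FPKM in wild type and at 6.66, 5.93 and 6.28 FPKM in Sp8 null. The groups did not overlap, but the estimate was small (log2 fold change 0.14, limma adjusted p = 0.361). Its exon shares bases with Mrps6 on the same strand. Slc5a6, which carries biotin and pantothenate, was at 1.71, 1.95 and 1.57 FPKM against 1.37, 1.26 and 1.22 FPKM (log2 fold change -0.26, limma adjusted p = 0.193). Intestinal and renal glucose carriers, Slc5a1 and Slc5a2, were at most 0.0180 and 0.108 FPKM.

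The lactate step was set beside the enzymes and partners of these carriers in a list of 17 genes for hexose capture, lactate and carrier partners, chosen with earlier results known. Of 12 tested members 3 fell and none rose, with a median log2 fold change of -0.26. Over all tested genes 5.15% were called lower and 1.68% higher, and the median was -0.06. Of the 12, 9 had a lower estimate, and the largest higher one was 0.42 for Txnip (limma adjusted p = 0.118). Hk2, the hexokinase that traps glucose inside the cell as its phosphate, was at 114.9, 119 and 87.2 FPKM in wild type and at 38.7, 33.2 and 40.2 FPKM in Sp8 null (log2 fold change -1.49, SE 0.13; limma adjusted p = 0.000982). Bsg, the chaperone that Slc16a1 and Slc16a3 need to reach the surface, was at 109.9, 106 and 93.1 FPKM against 74.7, 73.96 and 76.9 FPKM (log2 fold change -0.45; limma adjusted p = 0.0168). Its call was lost without any 1 of Sp8 null embryos 1 and 2 and wild-type embryos 1 and 2, with adjusted p from 0.0584 to 0.0807. The call was also lost with no filter on low values (limma adjusted p = 0.0565) and with the replicate number as a block (0.0857). Arrdc4, an arrestin-like protein that limits glucose uptake, was the other called member (-0.70, limma adjusted p = 0.00922). In Hk2 and Bsg the groups were clear of each other, unlike in the carriers Slc2a1, Slc2a3 and Slc16a1. Ldha, which makes lactate from pyruvate, was at 676, 767 and 529.8 FPKM in wild type and at 482, 404 and 417 FPKM in Sp8 null, and missed the threshold (log2 fold change -0.58, limma adjusted p = 0.0515; 0.0212 without wild-type embryo 3). Wild-type embryo 3 was the lowest wild-type library for Hk2, Ldha, Bsg and Slc16a3 alike.

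**Figure D4:**
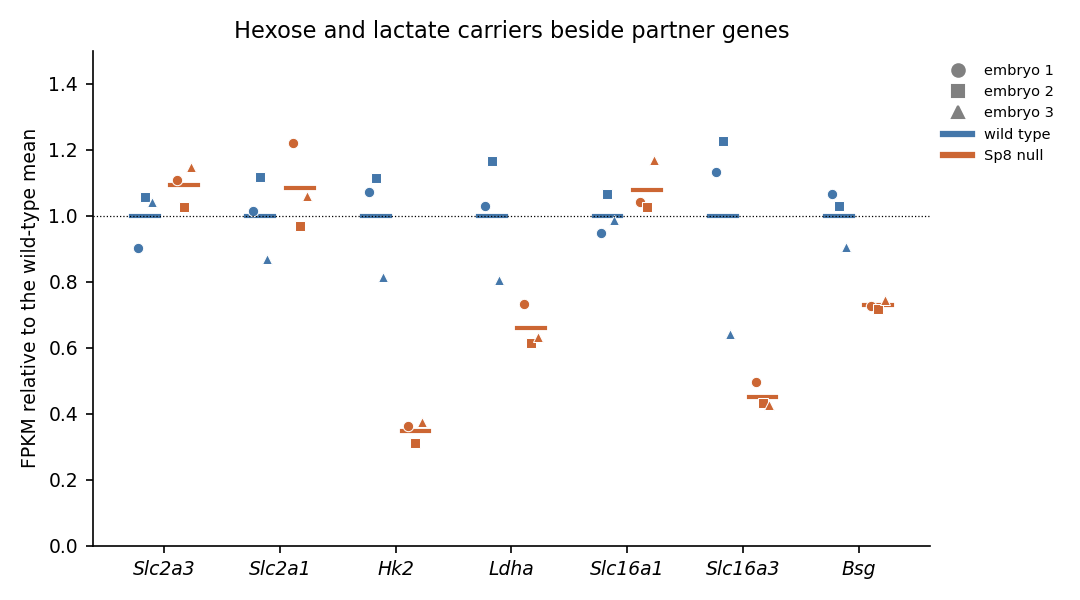
FPKM of 3 glycolytic or chaperone genes (Hk2, Ldha, Bsg) and 4 carriers in each library, divided by the wild-type mean of the gene; a point is 1 embryo and a bar is a group mean. Slc2a3, Slc2a1 and Slc16a1 overlap between the genotypes, while Hk2, Ldha, Slc16a3 and Bsg are lower in every Sp8 null library than in any wild-type library.

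The Slc6 family carries neurotransmitters, creatine, taurine and some amino acids with sodium and chloride. Of its 19 members 6 were tested and 1 fell. Slc6a2 (ENSMUSG00000055368; chromosome 8, 92960079 to 93001667, plus strand) takes noradrenaline back into sympathetic neurons. It was at 1.55, 1.76 and 1.84 FPKM in wild type and at 0.153, 0.0997 and 0.162 FPKM in Sp8 null. It passed the filter through the wild-type libraries alone, so a difference between the groups was built into its being tested. The log2 fold change was -1.25 (SE 0.11; limma adjusted p = 0.00114), and the mean wild-type level was 12.4 times the Sp8 null mean. The authors' deposited table gave group means of 412 in wild type and 33.6 in Sp8 null and a fold change of -8.39. Sox10 and Foxd3, markers of the neural crest from which sympathetic neurons come, were at most 0.102 and 0.0109 FPKM in any library.

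Other tested members of the family had estimates near 0 or intervals that included it. Slc6a8, the creatine carrier, was at 13.9, 15.1 and 13.3 FPKM in wild type and at 13.6, 13.99 and 16.5 FPKM in Sp8 null (log2 fold change 0.05, 95% interval -0.17 to 0.27). Slc6a6, the taurine carrier, was at 10.6, 12.0 and 9.81 FPKM against 9.91, 11.9 and 11.6 FPKM (0.04, -0.20 to 0.28). Both overlapped between the groups. Slc6a9, a glycine carrier, Slc6a13, a carrier of GABA and taurine, and Slc6a17, a vesicular amino acid carrier, had log2 fold changes of -0.08, 0.27 and -0.05, and none was called.

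The other 59 members did not reach the filter. Of these 12 were listed at 0 in every library, 27 were under 0.1 FPKM throughout, those at 0 included, and 7 reached 1 FPKM in some library. Slc16a12, a creatine carrier of lens and kidney, was just outside the filter with 0.965, 0.911 and 1.04 FPKM in wild type and 0.346, 0.349 and 0.440 FPKM in Sp8 null, and these groups did not overlap. In the authors' deposited table its fold change was -2.22, with the p-value listed as 0. Slc7a7, a light chain of the basic amino acid exporter, was at 0.527, 0.337 and 0.523 FPKM against 0.702, 0.673 and 1.01 FPKM, also without overlap. In the authors' deposited table its fold change was 1.49, with the p-value listed as 0.006822. That of Slc2a9 was 1.62, with the p-value listed as 0.000247. Just inside the filter stood Slc16a4, at 0.824, 0.893 and 1.06 FPKM against 1.22, 1.13 and 0.726 FPKM.

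Lists of genes that sense or use amino acids were read beside the carriers, as counts only. Of 15 tested genes of the amino acid response, the program that ATF4 drives, none was called, and 4 had an unadjusted p under 0.05, a cut that 24.0% of all tested genes passed. Their median log2 fold change was -0.07, against -0.06 over all genes. Phgdh, the entry enzyme of serine synthesis, had the smallest p, with 15.4, 14.8 and 12.7 FPKM in wild type and 11.4, 10.497 and 11.5 FPKM in Sp8 null (log2 fold change -0.33, limma adjusted p = 0.0793). Atf4 itself was at 27.1, 22.2 and 25.7 FPKM against 16.7, 21.3 and 23.97 FPKM (-0.28, limma adjusted p = 0.275), with overlap. Of 20 cytosolic aminoacyl-tRNA synthetases, the enzymes that load amino acids onto transfer RNA, 19 had a lower estimate, where 61.3% of all tested genes did. Their median was -0.27. Groups were apart for 14 of them, all lower, where 21.1% of all tested genes were without overlap and lower. Rars alone was called (-0.36, limma adjusted p = 0.0476), where 5.15% of all tested genes were called lower. With only protein-coding genes tested 5 were called, and without any library except Sp8 null embryo 3, left out in turn, none was. Of 31 genes of amino acid sensing, Mtor itself among them, 2 were called, where 6.83% of all tested genes were. Rragd, a small GTPase of the lysosome, fell (-0.61, limma adjusted p = 0.0377). Its call was lost without any library except Sp8 null embryo 2, with adjusted p from 0.0518 to 0.125. Sesn3, a sestrin that restrains mTOR, rose (0.46, limma adjusted p = 0.00591). It was at 26.4, 27.08 and 27.07 FPKM in wild type and at 37.6, 37.3 and 36.9 FPKM in Sp8 null, so both groups were tight and well apart.

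The submitters' processing notes name DESeq2, but not which values it gave, and the files do not name the test behind the deposited p-values. For 14 of the 38 tested carriers the authors' deposited table had a p-value under 0.05 with a lower Sp8 null mean, and for 7 with a higher one. Over all tested genes these shares were 20.0% and 11.3%. All 5 called carriers were among the 14, and 34 of 38 carriers had the same direction there as in FPKM. The fold change in the authors' deposited table was -10.9 for Slc16a10, -2.68 for Slc7a1, -1.70 for Slc7a11 and -1.44 for Slc16a3. Slc16a7, whose FPKM overlapped between the groups and was not called, had a fold change of -2.12 in the authors' deposited table, from a mean of 709 in wild type to 318 in Sp8 null, with the p-value listed as 0.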

How the data were processed

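RNA of forelimb ectoderm was measured in 6 libraries, 3 Sp8 null and 3 wild-type embryos, grouped by their titles. The authors deposited FPKM per gene and library with a status for each estimate, for gene models of Ensembl build 87 per the file headers. The submitters' processing notes name FastQC, TopHat2, SAMtools, Cufflinks, DESeq2 and the GRCm38 build, with no role or order, and the use of strand is not given in the sources used here. The authors' deposited table also gives a mean signal per group, a signed fold-change score and a p-value, whose test and adjustment are not stated in the file headers. They were read as wild type for control and Sp8 null for sample.

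FPKM was tested as log2(FPKM + 1), with a pseudocount of 1, in limma 3.58.1 (R 4.3.3) with a mean-variance trend, genotype as the only term, two-sided, and Benjamini-Hochberg adjustment over 12133 genes. A gene was tested if 3 or more libraries were at 1 FPKM or above. All estimates of the carriers had the status OK. Whole reads were not recovered from FPKM, which leaves counting error unknown. Relative depth is the commonest ratio of low values between libraries. Separate embryos are the replicates.

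The carriers, related lists and markers were chosen with earlier results of these data known. The carriers named are those called, the most abundant and the most changed of each family, heavy chains, Slc16 members whose mean reached 5 FPKM, and the highest untested ones, except for 1 Slc16 member that is not reported here. Other carriers, and list members that were not called, are named after their values were seen. Coordinates, types and exon overlaps are from GENCODE M21 on GRCm38, matched by Ensembl identifier. RefSeq promoter sequences on GRCm38.p6 matched 70 of 97 members by symbol. Alternatives covered the pseudocount, filter, scaling, estimate status, each library left out, the replicate number as a block, the leading number of the sample name, and gene type.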

Additional observations from a re-analysis of the deposited data

How the results depend on the processing

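Over the alternatives Slc16a10, Slc7a1 and Slc6a2 were called in every fit that could test them, Slc7a11 in 14 of 15 and Slc16a3 in 4 of 14. The number of called carriers was 3 with no filter on low values, 3 with a mean of at least 5 FPKM required, 7 with only protein-coding genes and 4 to 5 with 1 library left out. Depth limits what FPKM near the filter can show, and 59 carriers were not tested. The number of called genes over the whole table was 829 in the main analysis, 342 with no filter (293 shared), 545 with the first digit of the embryo's name added to the model (524 shared) and 316 to 642 with 1 library left out. Higher calls made up 24.6% of these, 37.4% under median-of-ratios and 42.0% under upper-quartile scaling. The scalings moved the median log2 fold change of all genes from -0.06 to 0.01 and 0.03.

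Replicate numbers were not shown to pair embryos: the correlations of deviations between same-numbered embryos were -0.16, -0.14 and -0.07. With the replicate number as a block 328 genes were called (312 shared), 4 of them carriers, with 0 synthetases and 0 sensing genes.

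The amino acid response list had 1 called gene, Pycr1, a proline synthesis enzyme that was higher, under either scaling. The synthetases had 0 with no filter, 0 with that first digit in the model, 5 with only protein-coding genes, and 0 to 2 with 1 library left out. The sensing list had 1 with no filter, 1 under each scaling, and 1 to 2 with 1 library left out. The list for hexose capture, lactate and carrier partners had 2 with no filter and 2 with the replicate number as a block. It had 4 with only protein-coding genes, and 2 to 4 with 1 library left out. The causes were not tested.

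Of 685 single-gene values 620 kept direction and side of the threshold, 36 lost the call (6 genes), 7 gained it (3 genes) and 22 changed sign (8 genes, none called). Upper-quartile scaling gave log2 fold changes of 0.018 for Slc3a2, 0.031 for Slc6a17, 0.043 for Slc36a4 and 0.048 for Slc36a1. Median-of-ratios scaling gave 0.011 for Slc6a17, 0.025 for Slc36a4 and 0.032 for Slc36a1. With 1 library left out the value ran from -0.117 to 0.0070 for Slc3a2, -0.030 to 0.1003 for Slc6a8, -0.020 to 0.115 for Slc6a6, -0.188 to 0.047 for Slc6a17, -0.154 to 0.047 for Slc6a9, -0.0055 to 0.176 for Slc16a4, -0.136 to 0.034 for Slc36a4 and -0.072 to 0.017 for Slc36a1.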
